A study of Homo sapiens with 6 samples.

Results

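The regions described here are the autosomal places where a MYC ChIP-seq peak was listed in replicate 1 and in neither of the other replicates. The rows of the 3 MYC peak lists were merged into places wherever they overlapped by at least 1 bp, and a place was kept if all of its rows came from replicate 1. This gave 7565 places of 27399 on the 22 autosomes, or 27.6%. A row was present in replicate 1 at 89.1% of all places, in replicate 2 at 58.5% and in replicate 3 at 60.1%, and these shares are the background of every count below. The places were selected on measured values, namely whether MACS2, the peak caller, listed a row below its q-value threshold of 0.05 in each library. Fold enrichment, p-value and width come from those same calls, so they are given as descriptions and no test was made of them.

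ONS76 is an established human line of medulloblastoma, a tumor of the cerebellum. DNA that came down with MYC in chromatin immunoprecipitation was sequenced (ChIP-seq), and the question was which genes MYC occupies in these cells. All samples carried the engineered genotype Inducible SOX2, and per the study SOX2 was not elevated for this assay. The MYC group held 3 libraries made with the antibody MYC (Y69), and the other 3 libraries were made with Normal IgG and have no list analysed here. The study's methods say that ChIP samples from a single chromatin batch were combined, and the sources used here do not say whether separate cultures lie behind the 3 replicates, so the spread between them may be technical.

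MYC is a basic helix-loop-helix leucine zipper factor that binds DNA as a dimer with MAX. The dimer prefers the E-box motif, and in proliferating cells it is found mostly at the promoters of active genes and also at enhancers. In a ChIP-seq library each bound site is a pile of sequenced fragments over a background of fragments from the rest of the genome, and a caller lists the pile only when it exceeds that background by more than a fixed probability allows. Coordinates below are in hg19, the build of the lists. Genes and sequence at these positions are not given here, because the genome used for this work is of another build.

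Replicate 1 listed more autosomal rows than the others, with 24529 against 16612 in replicate 2 and 17098 in replicate 3. The lists give no read totals. The lowest background in each list was therefore taken as its level, which is what a site would hold if fragments fell evenly over the genome and so depends on both their number and their length. Replicate 1 had a genome-wide level of 7.79 fragments, replicate 2 one of 5.84 and replicate 3 one of 4.76, so that replicates 2 and 3 stood at 0.750 and 0.611 of replicate 1. The narrowest rows were 252, 233 and 229 bp long, so these ratios need not be ratios of fragment numbers. Every value of the 7565 places thus comes from the library with the highest level, and what part depth has in their number was not tested.

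Places of a single replicate were far more numerous in replicate 1. Replicate 2 alone held 1304 places (4.76% of all) and replicate 3 alone held 1397 (5.10%). Replicate 1 shared 2062 places with replicate 2 alone and 2410 with replicate 3 alone, replicates 2 and 3 shared 293, and 12368 (45.1%) were in all 3. Of the replicate 1 list, 30.8% of the rows but only 18.8% of the covered bases (2.90 of 15.4 Mb) lay in places of its own. The corresponding shares of rows were 7.85% in replicate 2 and 8.17% in replicate 3. The number depended on the length of the list. When each list was cut to its 16612 strongest rows by p-value, 2307 places were in replicate 1 only. The counts of replicates 2 and 3 alone at that length are not given here, so the libraries are not compared there.

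The replicate 1-only places were weak. Their fold enrichment, the deposited ratio of fragments at the summit to local background with 1 added to both, had a median of 3.13 and ran from 1.42 to 7.76. The lower and upper quartiles were 2.73 and 3.64. Places in all 3 replicates had a median fold of 5.89 in the same library, with quartiles of 4.44 and 8.17. The upper quartile of the places of replicate 1 alone thus lay below the lower quartile of the places shared by all. Places found in replicate 1 and in 1 other replicate were between them, with median folds in replicate 1 of 3.69 with replicate 2 and 3.73 with replicate 3.

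Summit fragments and the background beneath them were solved from the fold and p-value of each row. A whole number of fragments that matched within 0.001 on the −log10 scale was found for 100% of the rows in each list. The median replicate 1-only summit held 32 fragments over a background of 8.88. The lowest summit held 19 fragments and the highest 183, and the quartiles were 27 and 37. Places in all 3 had a median of 63 fragments over a background of 9.38 in replicate 1. The places thus differed in fragments by a factor of 0.508 while their backgrounds were close.

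**Figure D1:**
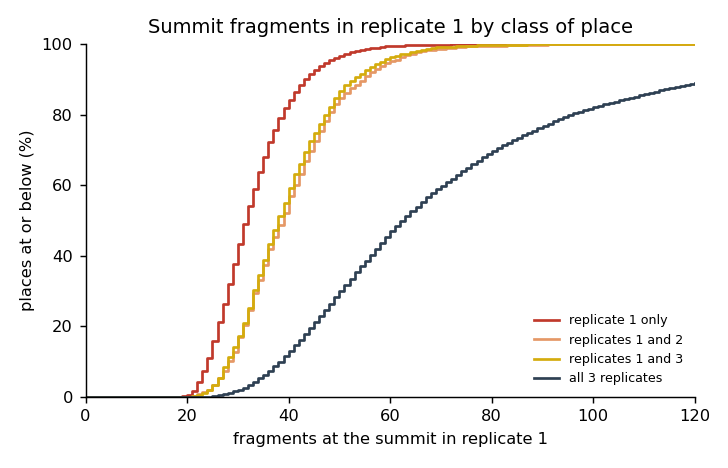
Share of places (%) with no more than a given number of fragments at the summit in replicate 1, for places in replicate 1 only, those it shared with replicate 2 or with replicate 3, and those of all 3 replicates. The curve of replicate 1 only is the leftmost, with a median of 32 fragments, and that of all 3 replicates is the rightmost, with a median of 63; the axis ends at 120 fragments, below the highest values.

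The same comparison was made for the places that replicates 2 and 3 held alone. The median fold of own-only places over that of places in all 3 was 0.532 in replicate 1, 0.620 in replicate 2 and 0.606 in replicate 3 (mean 0.586 ± 0.0477, SD, n = 3). For summit fragments the ratios were 0.508, 0.615 and 0.629 (mean 0.584 ± 0.0662, SD, n = 3). Own-only places were weaker than shared ones in every replicate. The lists differ in length, and with 16612 rows in each the ratios of replicate 1 were 0.648 for fold and 0.600 for fragments, so no order of the replicates is read from them. Replicate 2-only places had a median fold of 3.17 at 24 fragments, and replicate 3-only places 3.35 at 22 fragments. With 1 added to both terms, the own-only median folds of the 3 libraries were thus similar on different numbers of fragments. With nothing added they were 3.35, 3.45 and 3.78 for replicates 1, 2 and 3.

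How often a place was restricted to replicate 1 followed its strength there. Of the 691 places with a −log10 p below 5 in replicate 1, 84.8% were in replicate 1 only. The share was 67.4% between 5 and 10, 40.5% between 10 and 15, 17.0% between 15 and 20, and 4.95% between 20 and 30. Between 30 and 50 there were 13 such places of 2920. None of the 3156 places at 50 or more was in replicate 1 only, and 99.97% of them were in all 3. The median −log10 p of the replicate 1-only places was 8.36, the central 90% lay between 4.65 and 17.2, and the highest was 48.4. Places in all 3 had a median of 29.1.

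**Figure D2:**
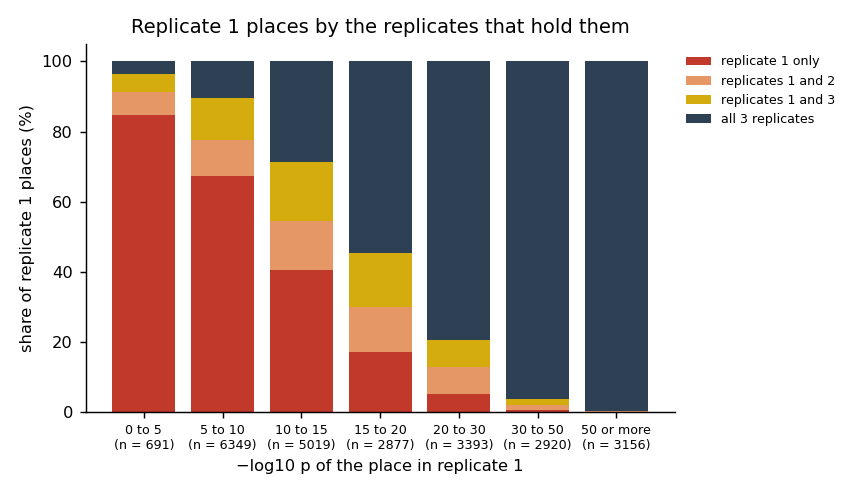
Share of the places with a row in replicate 1 (%) that were in replicate 1 only, shared with replicate 2, shared with replicate 3 or in all 3, by their −log10 p in replicate 1, with the number of places under each bar. The share in replicate 1 only falls from 84.8% in the weakest group to 4.95% at 20 to 30 and is 0 at 50 or more.

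The 3 lists were thresholded on q-value, and a fixed q-value needs a different p-value in each. The lowest −log10 p listed was 3.57 in replicate 1 and 3.76 in both of the others. The fragments and background of each replicate 1-only place were multiplied by the ratio of genome-wide levels. This gives the summit at the level of another library only if enrichment is equal there and counting error is absent. At places in all 3, median summit fragments were 63, 39 and 35 in replicates 1, 2 and 3. Their median folds with nothing added were 6.40, 5.68 and 6.31, so equal enrichment is an assumption. At the level of replicate 2, 95.4% of the places (7214) still reached the lowest −log10 p of its list, and at the level of replicate 3, 87.9% (6648) did. Their median −log10 p was then 6.61 and 5.62. These shares depended on the threshold. Among rows with a q-value of at most 0.001 they were 76.1% and 56.2%. The places had been picked for a row in replicate 1, the scaling adds no counting error, and a minimum row length also applies, so the shares describe the values in replicate 1 and not what the other libraries held there.

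The same scale was used to ask how often any place of replicate 1 was listed in the other libraries. Of all replicate 1 places with a scaled −log10 p from 3.76 to 5, 205 of 1715 were found in replicate 2 and 457 of 2593 (17.6%) in replicate 3. From 5 to 7.5, where the median member of the replicate 1-only group lay, 22.4% and 30.9% were found. From 10 to 15 the shares were 60.6% and 74.7%, and from 20 to 30 they were 95.8% and 98.2%. At every step from 3.76 upward the share found in replicate 3 was larger than that in replicate 2. The values were scaled to the level of each library separately, so a step does not hold the same places for both. Below the lowest listed value, 10.0% and 9.25% were still found.

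The rows were also short. The median width of the replicate 1-only places was 335 bp, with quartiles of 285 and 425 bp, against 737 bp for the replicate 1 rows of places in all 3. The narrowest row in the replicate 1 list was 252 bp long. Of the replicate 1-only places, 35.0% were within 50 bp of that length, compared with 2.15% of the places in all 3. At the other end, 47 replicate 1-only places (0.621%) were 1000 bp or longer, up to 1857 bp, compared with 3442 places in all 3 (27.8%). Own-only places were shorter than shared ones in every replicate, with ratios of medians of 0.455, 0.514 and 0.497 for replicates 1, 2 and 3 (mean 0.489 ± 0.0307, SD, n = 3). Summits of the replicate 1-only places lay at a median of 49.3% of the width, with quartiles of 36.7% and 61.6%.

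The difference in width was also there between places of similar p-value. At a −log10 p of 5 to 10, replicate 1-only places were a median of 323 bp wide and places in all 3 were 465 bp wide. At 10 to 15 the widths were 343 and 550.5 bp, and at 20 to 30 they were 411.5 and 697.5 bp. The ratio went from 0.773 in the weakest group, which held only 25 places in all 3, to 0.590 at 20 to 30. Strength was not fully matched, since replicate 1-only places had the lower median −log10 p within each group. The medians were 11.8 and 12.7 for 10 to 15, and 22.5 and 24.7 for 20 to 30. Fold was nearly the same within a group, at 3.73 and 3.74 for 10 to 15. Fragments were a little lower, at 36 and 39. A longer row has more bases on which another row can fall, so width is tied to the rule that selected the places, and the part of that tie in these ratios was not tested.

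**Figure D3:**
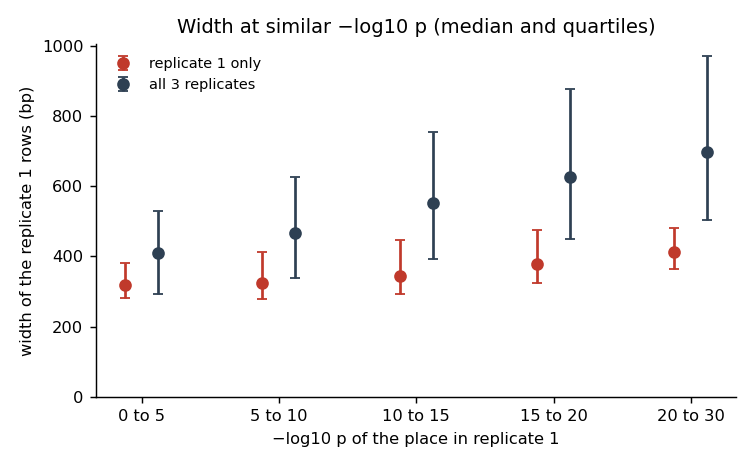
Width of the replicate 1 rows (bp; point, median; bars, quartiles) for places in replicate 1 only and in all 3 replicates, within groups of −log10 p in replicate 1. The medians of replicate 1 only rise from 317 to 411.5 bp and those of all 3 replicates from 410 to 697.5 bp.

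Background was read as relative background, the local background over the genome-wide level of the same library. The sources used here do not name the library that served MACS2 as control. The median was 1.14 for replicate 1-only places and 1.20 for places in all 3, a ratio of 0.946. The ratio of own-only to shared places was 1.08 in replicate 2 and 1.06 in replicate 3, so its side of 1 differed between replicates (mean 1.03 ± 0.0726, SD, n = 3). Of the replicate 1-only places, 31.5% (2384) were at the genome-wide level itself, where no local window raised the background, against 25.7% of the places in all 3. This too had the other direction in the other libraries, where 27.8% of the replicate 2-only and 30.4% of the replicate 3-only places were at that level, against 41.1% and 39.3% of the places in all 3. Within replicate 1, at a −log10 p of 20 to 30 these shares were 47.0% and 30.2%. A relative background of 1.5 or more was present at 1344 of the replicate 1-only places (17.8%) and at 3096 of the 12368 places in all 3, while the shares were 18.7% against 11.7% in replicate 2 and 18.9% against 13.8% in replicate 3.

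The strongest member by p-value and by fold was chr1:225566701-225567097, which held 85 fragments over a background of 10.1, a fold of 7.76 and a −log10 p of 48.4. The nearest row of another replicate was 36592 bp away, in replicate 3. Next by p-value came chr7:128514635-128515168, with 92 fragments, a fold of 5.52 and a −log10 p of 39.3 over a relative background of 2.03. A replicate 3 row lay 4519 bp from it. It was followed by chr5:138750816-138751488, the widest of the 5 at 673 bp, with 67 fragments and a fold of 6.85. The next pair below it, chr7:74267168-74267510 and chr9:137568121-137568611, both held 61 fragments at the genome-wide level, with a fold of 7.06 and a −log10 p of 33.6. They were also next to the strongest member by fold. None of these 5 had a row of another replicate within 1000 bp.

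Members with the highest background showed many fragments at low fold. At chr11:93970945-93971349 the background was 16.5 times the genome-wide level, and 183 fragments gave a fold of 1.42 and a −log10 p of 5.56. This place set both the highest fragment number and the lowest fold of the group. At chr1:145022315-145022573 a relative background of 5.42 and 100 fragments gave a fold of 2.34. At chr20:22385098-22385451 a relative background of 3.45 and 57 fragments gave a fold of 2.08. The weakest members by p-value were chr20:30151038-30151297, with 31 fragments at a fold of 1.88, and chr2:57848302-57848560, with 19 fragments at a fold of 2.21. Both had a −log10 p of 3.57.

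The edge of the rule was narrow in bases. Just inside it, chr1:1261058-1261314 (25 fragments, fold 2.94) lay 8 bp from a row of replicate 2 and 0.333 kb from a place in all 3. The next, chr8:85533309-85533626 (34 fragments, fold 3.26), lay 10 bp from a row of replicate 2. Just outside it, the rows of replicates 1 and 2 shared 2 bp at chr8:124550270-124551111, where replicate 1 held 35 fragments at a fold of 2.97 and replicate 2 held 21 at 2.64. At chr1:3501526-3502836 they shared 17 bp, with folds of 3.10 and 4.08. Few members were this close to a listed row. A row of replicate 2 or 3 lay within 100 bp of 23 members, within 500 bp of 398 (5.26%) and within 1000 bp of 780 (10.3%), and the median distance to one was 20.9 kb.

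Distance to the nearest place found in all 3 replicates had a median of 37.4 kb, with quartiles of 10.2 and 116.8 kb. Places in all 3 lay a median of 26.6 kb from the next of their kind. Within 100 kb of a place in all 3 were 71.9% of the replicate 1-only places, against 81.2% of the places in all 3. Within 1 kb were 6.97% (527), and beyond 1000 kb were 140, the farthest at 4340 kb. Replicate 2-only places had a median of 41.2 kb and replicate 3-only places 32.9 kb, so that the value of replicate 1 lay between those of the other libraries. Places shared by a pair of libraries were nearer, at 28.5 kb for replicates 1 and 2, 29.5 kb for replicates 1 and 3 and 18.3 kb for replicates 2 and 3.

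**Figure D4:**
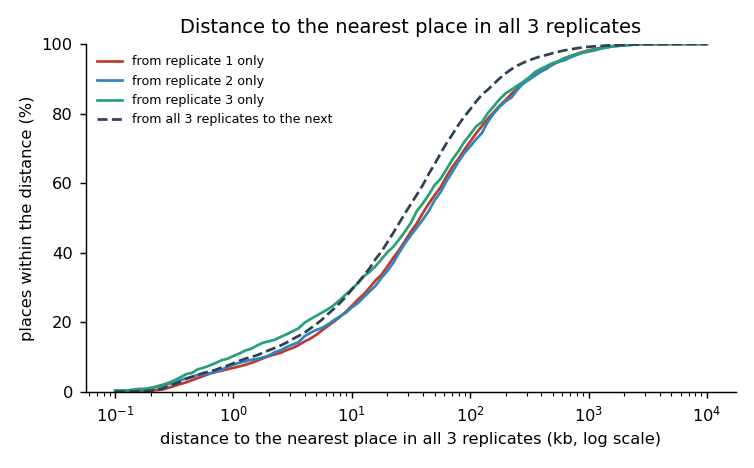
Share of places (%) whose nearest place in all 3 replicates lay within a given distance (kb, log axis), from places of each single replicate and from places in all 3 to the next one. The curves of the 3 single replicates run close together, with medians of 37.4, 41.2 and 32.9 kb, and from about 10 kb upward lie to the right of the curve for places in all 3, with a median of 26.6 kb.

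The members nearest to and farthest from a place in all 3 differed in background as well as in fold. Median width was 346 bp within 1 kb of a place in all 3 and 324 bp beyond 1000 kb. Median fold was 2.98 and 3.33, and median fragments 31 and 30. Median relative background was 1.15 and 1.00. The share at the genome-wide background level was 27.3% within 1 kb, 23.7% from 1 to 10 kb, 28.2% from 10 to 100 kb, 41.9% from 100 to 1000 kb and 60.0% beyond. Places in all 3 showed the same course of this share by the distance to their next neighbor, from 20.6% within 1 kb to 63.4% beyond 1000 kb. The members were mostly single. No other member lay within 10 kb of 6162 of them (81.5%), 570 groups held 2, and 82 groups held 3 or more with at most 6. Places in all 3, which are more numerous, were mostly single too, with another of their kind within 10 kb for 29.4%. Another replicate 1-only place was nearer than any place in all 3 for 43.1%, where 7565 places of the former kind stood beside 12368 of the latter.

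The chromosomes differed in how many places were in replicate 1 only. Over the 22 autosomes there were 61.2 replicate 1-only places per 100 places in all 3. The number was highest on chromosome 13, with 88.7 per 100 (126 against 142 places), followed by chromosome 18 with 83.4 and chromosome 4 with 82.3. It was lowest on chromosome 19, with 42.1 per 100 (318 against 755), followed by chromosome 17 with 45.7 and chromosome 16 with 47.9. The highest was 2.11 times the lowest. As a summary, 8.24% of the replicate 1-only places would have to sit on another chromosome to give the shares of the places in all 3. The same measure was 11.8% for replicate 2-only and 10.9% for replicate 3-only places, which are fewer.

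**Figure D5:**
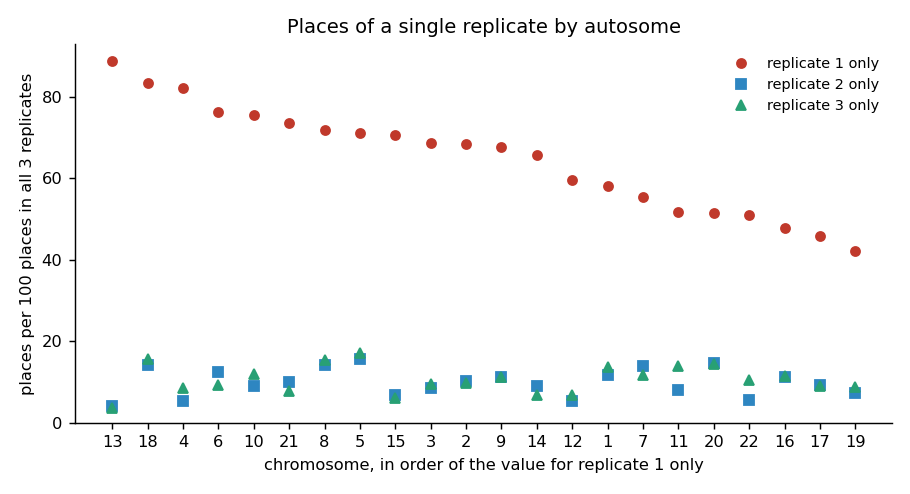
Places in a single replicate per 100 places in all 3 replicates, by autosome in order of the value for replicate 1. Replicate 1 runs from 88.7 on chromosome 13 to 42.1 on chromosome 19, while replicates 2 and 3 lie between 3.52 and 17.2 and follow another order.

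The order of chromosomes was another one in the other libraries. Chromosome 13 was the lowest for both, with 4.23 replicate 2-only and 3.52 replicate 3-only places per 100 in all 3, or 6 and 5 places. Chromosome 5 was the highest for both, with 15.7 and 17.2, and stood at 71.1 in replicate 1. Across the 22 chromosomes, the replicate 2-only and replicate 3-only values had a Spearman's rho of 0.75 (Pearson's r 0.78), and the replicate 1-only values had a rho of -0.01 with the former and -0.09 with the latter (r -0.04 and -0.15). All of these share the count of places in all 3 as divisor.

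The replicate 1-only value was low on chromosomes that were densely covered by places in all 3. Over the 22 chromosomes its rho with the number of places in all 3 per Mb was -0.90 (r -0.87). The replicate 2-only and replicate 3-only values had rhos of 0.23 and 0.27 with the same density (r 0.05 and 0.14). These are descriptions over chromosomes of the same 3 libraries, and the count of places in all 3 enters both axes. Density ran from 1.30 per Mb on chromosome 4 to 12.8 per Mb on chromosome 19.

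Background separated the chromosomes more than fold did. On chromosome 4, 88.2% of the members (180 of 204) were at the genome-wide level, on chromosome 13 the share was 86.5%, and on chromosome 20 none of 313 was. Members on chromosome 20 had a median relative background of 2.01, 43 fragments and a fold of 2.61, against 29 fragments and a fold of 3.41 on chromosome 4. Their median −log10 p was 8.13 and 8.94. Places in all 3 had a relative background of 2.10 on chromosome 20 and 1.00 on chromosome 4, so both kinds of place differed in background between these chromosomes.

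In windows of 10 Mb, the same quantity varied more widely. Of 292 windows with any place, 203 held at least 20 places in all 3, and in these the median was 61.3 replicate 1-only places per 100 in all 3, with quartiles of 47.7 and 79.4. The highest was 178.8, in chr6:20000001-30000000, where 59 replicate 1-only places stood beside 33 in all 3, 8 in replicate 2 only and 10 in replicate 3 only. That stretch of the short arm is known for the large histone gene cluster, and which genes the 59 places are near was not analysed here. The next were chr10:30000001-40000000 with 27 against 22 and chr3:170000001-180000000 with 40 against 33. The lowest was chr17:80000001-90000000, which the chromosome fills only in part, with 7 against 43. In all, 52 windows held more replicate 1-only places than places in all 3, and 15 of these had at least 20 places in all 3. Of the 292 windows, 5 had no place in all 3 and held 9 members. Those of the 5 with a member are counted among the 52.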

How the data were processed

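MYC ChIP-seq peak lists of 3 ONS76 libraries were used, with groups and replicate numbers from the labels. Per the study's methods and the submitters' processing notes, the authors aligned reads to hg19 with Bowtie2 and called peaks per library (MACS2, q-value threshold 0.05). For their consensus the authors kept peaks that occurred in more than a single replicate. Places of replicate 1 alone, as merged here, do not meet that rule. The sources used here give no control library, duplicate handling or versions. Each deposited row has a fold enrichment (a ratio over local background), −log10 p, −log10 q, a summit offset and an integer score taken from −log10 q. None is scaled between libraries by the authors.

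Autosomal rows that overlapped by 1 bp were merged into places, and the row with the highest −log10 p gave a place its values. Fragments (whole) and background were solved from fold, (fragments + 1)/(background + 1), and the Poisson p-value within 0.001. At the genome-wide level means within 1.0005 times the lowest background. Distances run between edges. The steps were tested on simulated data. Named places were the 5 members highest in −log10 p, the 3 highest in fold, the 3 highest in relative background, the 2 nearest to a row of replicates 2 or 3, the 2 that shared fewest bases with 1 other replicate, and the 2 weakest. Members and lists were chosen with earlier results of these data known. No test was made, since the calls chose the places. Alternatives were q-values of at most 0.01 and 0.001, a reciprocal overlap of 50%, summits within 200 bp, rows within 500 bp joined, equal list lengths, all chromosomes, fold with nothing added, and leaving out replicate 2 or 3. The reference at hand is of hg38 and was not used. Tools were Python 3.11.15, NumPy 2.4.6, pandas 2.3.3, SciPy 1.17.1 and matplotlib 3.10.9.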

Additional observations from a re-analysis of the deposited data

Results flagged for a closer look

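Outside the autosomes, 155 places were in replicate 1 only on chromosome X, beside 131 in all 3 replicates, or 118.3 per 100, which is above the highest autosome (88.7). Their median fold was 3.64, with 31 fragments and a width of 341 bp. The comparisons on autosomes did not use these data, and no control list was analysed beside them. Among the autosomes the value was higher where places in all 3 were fewer per Mb (rho -0.90). That density was not computed for chromosome X, so the value there is not read as a departure from the autosomes.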

How the results depend on the processing

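Of 72 values under 10 alternatives, 53 moved by less than their limit and 19 by more. A change to the other side of 1 was looked for only in the ratios of fold, fragments, background and width. None of these ratios had it. The limit was 1 SD between replicates, 1.5 times for the number of places, and the 95% Wilson interval over members for the shares that reached the lowest −log10 p, which holds no spread between libraries. Cutting the lists to 16612 rows each gave 2307 places in replicate 1 only, with ratios to places in all 3 of 0.648 for fold and 0.600 for fragments, a distance of 41.8 kb and 11.3% placed differently by chromosome. A reciprocal overlap of 50% gave a width ratio of 0.530 and a distance of 41.8 kb, and summits within 200 bp a width ratio of 0.500. The share that reached the lowest −log10 p at the level of replicate 2 was 86.5% at a q-value of at most 0.01 and 76.1% at 0.001, and at the level of replicate 3 it was 72.9% and 56.2%. Without replicate 2 or 3, fold ratios were 0.595 to 0.601, fragment ratios 0.569 to 0.579, width ratios 0.515 to 0.519, distances 27.9 to 28.4 kb and counts 9652 to 10014; fewer lists then decide membership. Without replicate 1 no member is left. The cause of the other moves was not tested. No paired analysis was possible because only MYC libraries had lists here and no test was made. Depth is known only through the genome-wide level, which also holds the fragment length.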
